A study of Sus scrofa with 12 samples.

Results

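The circRNAs described here are the 756 circular RNAs of pig liver that the deposited circRNA table classes as intergenic, that is, as lying in no gene of the annotation used for that table. They were chosen by that class alone, with the 19 intergenic circRNAs of chromosome X left out, and form 756 of the 24177 circRNAs listed and of the 23611 that lie off the sex chromosomes. Together they carried 13317 counts. A count is 1 sequencing read across a back-splice junction, and every count below is of this kind unless it is named as a gene count. No intergenic circRNA has a host gene in the table, and the listed length equals the genomic distance from start to end for all 756, so exons inside these circles are not resolved.

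A circRNA is formed when the splicing machinery joins the downstream end of an exon to the upstream start of the same or an earlier exon, which closes the RNA into a loop. Without free ends, the loop is resistant to exonucleases and often outlasts the linear RNA of its locus. Pairing of inverted repeats in the flanking introns brings the ends together, the helicase DHX9 and the editing enzyme ADAR oppose that pairing, and RNA-binding proteins such as QKI favour the loop. Circles outside annotated genes can come from long non-coding RNAs, from unannotated exons of neighbouring genes, or from joins made during library preparation or alignment.

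Livers came from Bama pigs, a miniature breed of southern China, and from Hezuo pigs, a small breed of the cold Gansu plateau. They were sampled on day 15 at 23 ± 2 °C (room temperature, here called control pigs) or -15 ± 2 °C (here called cold-housed pigs). There were 3 pigs in each of the 4 groups of breed and temperature, each pig giving 1 library of rRNA-depleted total RNA made with a protocol that keeps the strand. The labels name no step that digests linear RNA, and they give no age and no sex. The labels number the pigs 1 to 3 in each group and do not say whether a number stands for the same animal at both temperatures. The breeds were compared as breeds, with no crosses.

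The libraries held 39117 to 75616 back-splice counts over all circRNAs, with the highest total in control Bama replicate 3 and the lowest in cold-housed Bama replicate 1. The tissue label was borne out by hepatocyte markers, all 7 of which were detected, but their summed level ranged from 29360 to 91980 CPM (gene counts scaled by TMM to a common library total) in the cold-housed Bama libraries against 107100 to 120100 in control Bama, and from 56460 to 137900 in cold-housed against 143200 to 170200 in control Hezuo. ALB, the albumin gene, made up 1.53%, 3.14% and 7.12% of gene counts in cold-housed Bama replicates 1, 2 and 3 and 9.78%, 3.05% and 7.35% in the cold-housed Hezuo replicates, against 8.24% to 12.01% in the 6 room temperature libraries. The 6 macrophage markers, all detected, summed to 857 to 1334 CPM in control Bama and 1429 to 2612 in the cold, and to 574 to 939 and 916 to 1861 CPM in Hezuo. The 5 stellate and mesenchymal markers, all detected, summed to 1656 to 3449 and 524 to 914 CPM in Bama, and to 1145 to 1991 and 586 to 1093 in Hezuo. The 6 lymphocyte markers, all detected, separated the breeds, with 68.1 to 172.9 CPM in control and 71.2 to 114.9 in cold-housed Bama against 36.3 to 58.9 and 41.8 to 59.2 in Hezuo. Of 5 red cell markers 4 were matched and detected, and these summed to 1393 to 5292 and 234 to 3602 CPM in Bama and to 4457 to 14790 and 2303 to 20940 in Hezuo. The Y-linked gene DDX3Y had 3 or fewer counts in each control Bama library and 0 in cold-housed Bama replicate 2. It had 2284 counts in cold-housed Bama replicate 1, 3769 in replicate 3, and 1331 to 2407 in each Hezuo library. The Bama libraries numbered 1 and 3 thus differed in it between the temperatures. If the labels are right, these numbers do not stand for the same Bama animals at both temperatures. At room temperature, breed and the presence of Y-linked RNA therefore cannot be told apart. Temperature in Bama, and so the comparison of temperatures over both breeds, is partly mixed with Y-linked RNA as well. DDX3Y itself passed in that comparison (log2 5.24 ± 1.18, edgeR adjusted p = 0.0405). In bulk tissue, a smaller number of cells that make a circle and fewer circles in each cell cannot be told apart either.

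Most intergenic circles were rare. Their median count over all 12 libraries was 4, against 8 for circles of annotated exons and 3 for both intronic and antisense circles. Of the 756, 324 (42.86%) were seen in 1 library, and these held 848 counts in all, with 2 to 8 counts each. Another 27 (3.57%) were seen in all 12 libraries, and these 27 held 5830 counts, or 43.78% of the counts of the class. The 10 most abundant circles held 43.29% of the class, against 6.75% for the 10 most abundant circles of annotated exons, a class of 18670. In classes nearer in size, the top 10 held 44.6% (antisense, 864 circles), 38.6% (intronic, 394) and 31.34% (1-exon, 949). In 12 libraries with 2 counts as the smallest total in the table, 199 intergenic circles sat at that minimum.

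The circles spanned 108 to 98783 bases, with a median of 4302 and quartiles of 853.5 and 17814 bases. That median lay between those of intronic (900.5) and antisense (620.5) circles and that of circles of annotated exons (9558.5). The 113 circles under 400 bases were mostly sporadic, since 87 of them (76.99%) were seen in 1 library, against 237 of the 643 longer ones (36.86%). The longest circle, novel_circ_010269, reaches over 98783 bases of chromosome 15 between DLX2 and ITGA6 and had 2 counts, both in cold-housed Bama replicate 1. The shortest, novel_circ_020982, spans 108 bases of chromosome 6 and had 2 counts in each of 3 libraries, cold-housed Bama replicates 1 and 2 and control Hezuo replicate 3.

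Circles made by the splicing machinery often share a start or an end with other circles, because 1 splice site can pair with several partners. Of the 756 intergenic circles, 302 (39.95%) shared a start or an end with another listed circle, and these 302 held 74.54% of the counts of the class. The shares of circles with a shared end were 14.24% for antisense, 25.89% for intronic, 42.68% for 1-exon, 67.39% for exon and intron, and 75.23% for annotated-exon circles. Intergenic circles with a shared end had a median of 8 counts and were seen in a median of 4 libraries, whereas the 454 without one had a median of 3 counts in 1 library. A class with more circles offers more partners, and a circle with more counts is more easily seen with a partner, so these shares are descriptions and were not tested. The 302 include all 8 circles of a chromosome 7 locus of 340 bases, with 1724 counts. Junction sequences were not analysed, so a shared end was not taken as a mark of splicing.

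**Figure D1:**
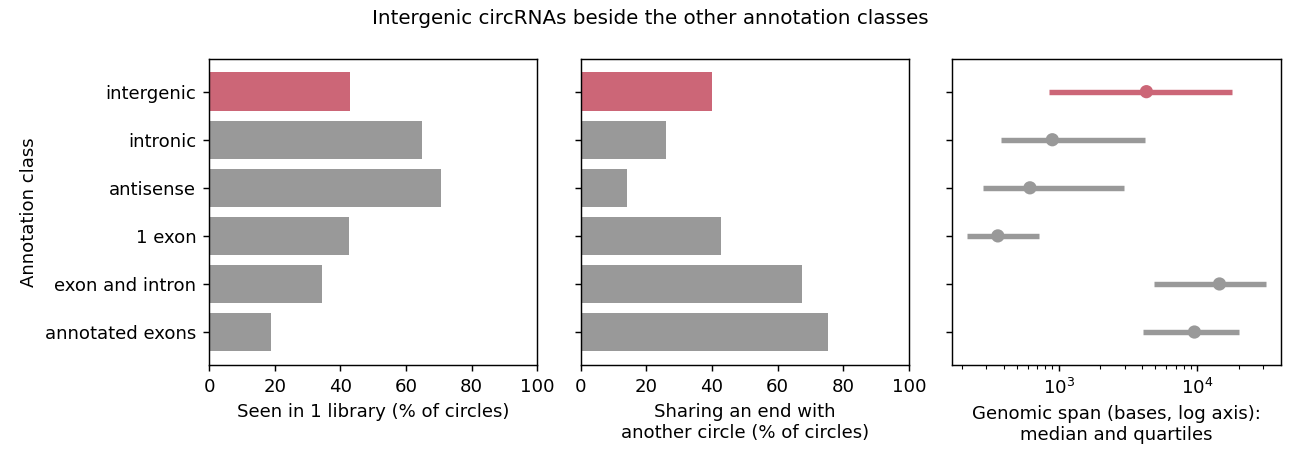
Rows are the 6 annotation classes of the circRNA table, off the sex chromosomes. The panels give the share of circles seen in 1 library, the share that share a start or end with another circle, and the genomic span as median (dot) and quartiles (line) on a log axis. Intergenic circles (red) were seen in 1 library less often (42.86%) than intronic (64.72%) and antisense (70.6%) circles and shared ends more often than both.

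Set against RefSeq genes (assembly Sscrofa11.1), many of these circles were not outside genes. The build behind the circRNA table is not given in the sources used here. Of 16896 exonic circRNAs whose gene symbol is in RefSeq, 16601 (98.25%) lay inside the RefSeq gene of that name, and RefSeq was then used for gene names and neighbours only. Of the 756 intergenic circles, 501 (66.27%) lay wholly inside a RefSeq gene. For 246 of these it was a long non-coding RNA gene, for 237 a protein-coding gene, for 9 both, and for 9 a gene of another kind. A further 71 overlapped a RefSeq gene in part and 184 (24.34%) touched none. The 184 held 23.56% of the counts and had the same median count, 4, as the circles inside genes.

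The RefSeq table used gives no strand, so for circles inside coding genes the strand was set beside that of the annotated circles of the same gene. In 85 cases an intergenic circle lay on the strand of the annotated circles of the coding gene around it and in 16 on the opposite strand, and the 85 held 2072 counts against 47 for the 16. The comparison was limited to genes that host annotated circles, and the remaining circles inside coding genes have no strand result. Circles that lie inside a long non-coding gene only have none either, so their strand relative to that gene is not known. In addition, 36 intergenic circles shared an exact start or end with a circle of another class, from 24 host genes, and held 24.1% of the counts of the class. By chromosome, 82 of the 756 circles (10.85%) lay on chromosome 2, which holds 7.04% of all circRNAs, and 59 (7.8%) on chromosome 1, which holds 10.98%.

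Intergenic circles made up a small and similar share of each library. The share of back-splice counts was 2.13% ± 0.0954 in control Bama pigs, 2.27% ± 0.367 in cold-housed Bama, 1.92% ± 0.305 in control Hezuo and 2.18% ± 0.275 in cold-housed Hezuo (mean ± SD, n = 3 libraries each). The lowest library was control Hezuo replicate 2 with 1.65% (95% Wilson interval 1.54 to 1.77%) and the highest cold-housed Bama replicate 2 with 2.58% (2.45 to 2.72%). All 4 groups overlapped in this share. Such intervals and the ratios given below cover counting error only.

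A library contained 169 to 246 intergenic circles. After each library was thinned to 39117 back-splice counts (mean of 20 draws), the number was 167.6 to 225.4, and both of these extremes were cold-housed Hezuo libraries, replicates 2 and 3. The means of the thinned numbers were 189.4 ± 11.96, 184.7 ± 17.55, 196 ± 6.3 and 196.8 ± 28.9 (SD, n = 3) in control Bama, cold-housed Bama, control Hezuo and cold-housed Hezuo. Their ranges overlapped.

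**Figure D2:**
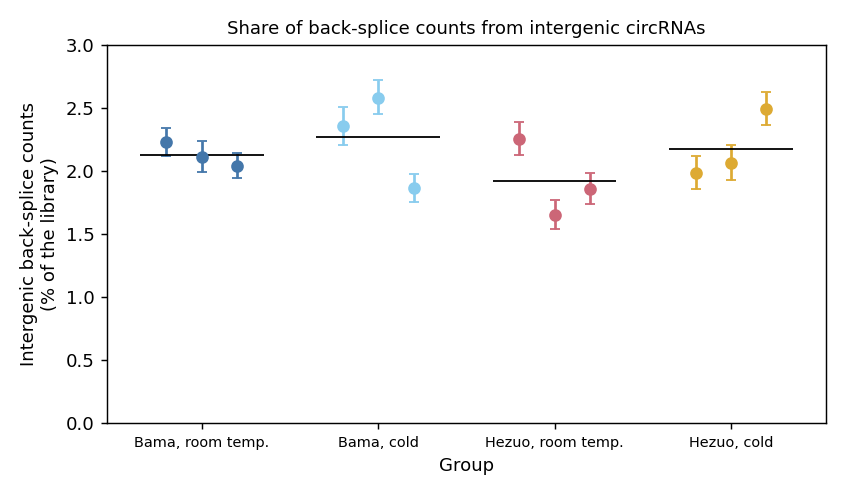
Each dot is 1 library, placed by group on the horizontal axis, and the vertical axis is the percentage of its back-splice counts that come from intergenic circRNAs. Bars are 95% Wilson intervals and black lines are group means. The 12 libraries lie between 1.65% and 2.58% and the groups overlap.

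The most abundant intergenic circle, novel_circ_000559, lies on the minus strand of chromosome 7 from 78551579 to 78551849, a span of 271 bases. It touches no RefSeq gene, and its neighbours are PARP2, which encodes a DNA repair enzyme that makes poly(ADP-ribose), and CCNB1IP1. With 1426 counts it ranked 24th among all circRNAs listed and held 10.71% of the counts of the class. Counts were 220, 137 and 167 in control Bama, 163, 271 and 133 in cold-housed Bama, 108, 23 and 0 in control Hezuo, and 62, 30 and 112 in cold-housed Hezuo. All 6 Hezuo libraries lay below all 6 Bama libraries, and control Hezuo replicate 3 had none, which allows up to 3 counts.

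That single empty library decided the test of this circle. Over both temperatures the log2 fold change of Hezuo against Bama was -1.54 ± 0.73 (SE) and did not pass (edgeR adjusted p = 0.497). Without control Hezuo replicate 3 it was -1.24 ± 0.22, with an adjusted p of 1.96e-05. Over the other 11 libraries left out in turn, and over the other settings, it did not pass. In the empty library, novel_circ_004279, which has the same start coordinate and an end coordinate 10 bases higher, still had 2 counts.

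Around this circle, 8 intergenic circles lie within 340 bases, all on the minus strand, with 5 starts and 4 ends. The main circle held 82.71% of their 1724 counts and novel_circ_004279 (253 counts, 281 bases) 14.68%, and the other 6 had 3 to 14 counts each. Of the counts of the 2 main circles, novel_circ_004279 held 11.3% in Bama and 25.39% in Hezuo, and 16.79% in Hezuo without cold-housed replicate 3, which had 69 of its counts. Its counts were 34, 19 and 14 in control Bama, 15, 43 and 14 in cold-housed Bama, 25, 2 and 2 in control Hezuo, and 8, 8 and 69 in cold-housed Hezuo, so the breeds overlapped in it. The mean level of PARP2 was 4.62 to 8.46 gene CPM in the 4 groups, and PARP2 did not pass in the comparison of breeds (log2 0.42 ± 0.15, edgeR adjusted p = 0.096).

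The next circle by count, novel_circ_021721, lies on the plus strand of chromosome 10 from 42063516 to 42079536, inside ZEB1, which encodes a zinc finger repressor known from the epithelial to mesenchymal transition. A RefSeq long non-coding gene, LOC110255584, covers it too. It starts at exactly the base where novel_circ_000032 starts, an exon and intron circle that the table assigns to ZEB1 and that had 901 counts, so the most used intergenic start there is a start of ZEB1 circles. The 1131 counts of novel_circ_021721 were even over the groups, with 1674 ± 329, 1867 ± 445, 1898 ± 255 and 1831 ± 966 back-splice CPM (SD, n = 3) in control Bama, cold-housed Bama, control Hezuo and cold-housed Hezuo. CPM is here the count scaled in the same way by the back-splice total of the library. The lowest library was cold-housed Hezuo replicate 2 with 32 counts and the highest cold-housed Hezuo replicate 3 with 130.

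Among the 12 most abundant intergenic circles, 5 lay wholly inside a long non-coding RNA gene, 2 inside a coding gene, 1 inside both, 2 overlapped a long non-coding gene in part, and 2 had no gene, these 2 being the chromosome 7 pair. Inside USP33, which encodes a deubiquitinase, novel_circ_011738 (chromosome 6, 135569387 to 135570057, plus strand, 671 bases) had 527 counts, and all 12 libraries held between 16 and 59. The USP33 entry of the gene counts was near the floor, at 0 to 0.85 gene CPM in every library. In LOC106506475, beside the prostaglandin E2 receptor gene PTGER4, novel_circ_003725 (chromosome 16, 25613034 to 25618464, minus strand) had 190 counts, between 7 and 20 in every library. Both of these circles were present in every library at counts that ranged less widely than those of the chromosome 7 circle. In LOC100623190, next to a further unnamed gene and to ABCB1, the drug efflux pump gene, novel_circ_011507 (chromosome 9, 92962962 to 92965607, minus strand) had 200 counts, from 3 in cold-housed Bama replicate 3 to 41 in control Bama replicate 3.

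By overlap of their spans the 756 circles form 489 loci. Of these, 388 hold 1 circle each, and the other 101 hold 368 circles and 75.8% of the counts. In 96 of the 101 loci all circles lay on 1 strand.

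The locus on chromosome 18 from 17849381 to 17973201, at the long non-coding gene LOC106506781 beside MKLN1, held 19 circles, all on the plus strand, with 511 counts. Of the 19, 16 lay inside that gene, 2 reached past its bounds and 1 touched no gene. They used 7 starts and 8 ends in combination, and 18 of the 19 shared at least 1 of them with another circle. On the plus strand the start is where an upstream exon begins and the end is where a downstream exon stops. The start at 17859078 was used by 6 circles with 258 counts (50.49%) and the end at 17912006 by 5 circles with 291 counts (56.95%). Their joint circle, novel_circ_013220 (52929 bases), was the most abundant with 194 counts, seen in every library with 6 to 33. A start and an end lay 113 bases apart counting both (17889683 and 17889795), and another pair 150 bases (17911857 and 17912006).

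**Figure D3:**
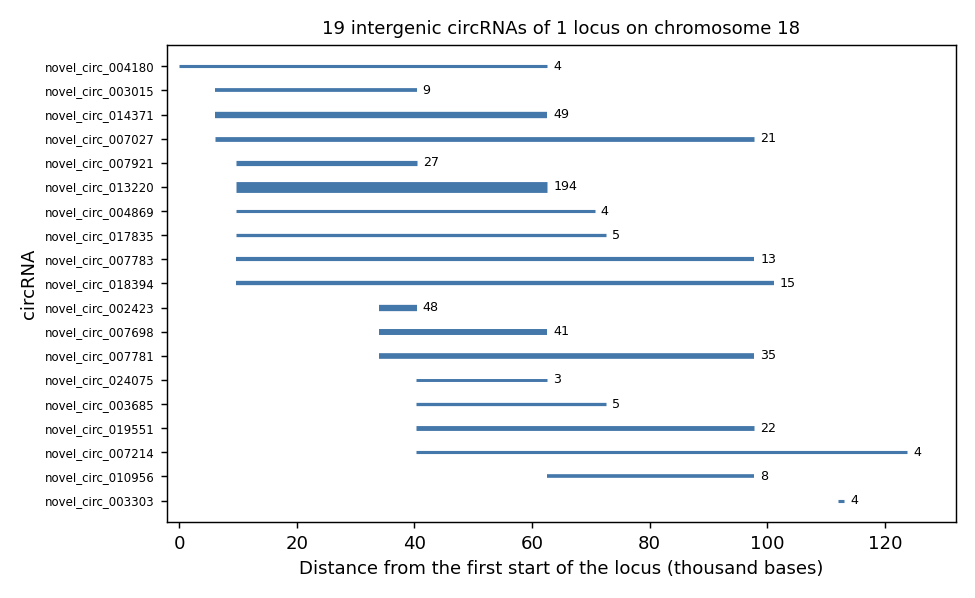
Each horizontal line is 1 of the 19 intergenic circRNAs of the chromosome 18 locus, drawn from start to end by its distance from the first start of the locus on the scale printed on the axis. Line width grows with the square root of the count, and the number at the right is the count over 12 libraries. The same few starts and ends recur, and novel_circ_013220 with 194 counts is the thickest line.

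The locus with the most circles was of another kind. On chromosome 2 from 6750337 to 6756060, in LOC102163816, 24 circles shared 70 counts, and none had more than 7. They used 21 starts and 23 ends, 7 of the 24 shared an end with another circle, 19 were seen in 1 library, and they lay on both strands (21 minus, 3 plus). A library held 0 to 14 counts of the whole locus, with the highest in cold-housed Hezuo replicate 3 and none in cold-housed Hezuo replicate 1.

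Another 2 loci fell inside coding genes of RefSeq. On chromosome 8, from 133695707 to 133797336, 12 plus-strand circles with 177 counts lay within WDFY3, whose product is a scaffold of selective autophagy, and all 12 shared an end with another circle. On chromosome 7, from 62303625 to 62377463, 8 minus-strand circles with 102 counts lay within TTC6, next to FOXA1, which encodes a transcription factor that opens chromatin in liver. On chromosome 11, from 55339527 to 55444302, 8 minus-strand circles with 55 counts overlapped the long non-coding gene LOC102163241, 7 of them in part and 1 wholly inside it, and all 8 shared an end. The chromosome 8 locus was seen in every library with 6 to 23 counts, and the chromosome 11 locus with 0 to 14.

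To compare breeds and temperatures, each circRNA was tested across the whole table with edgeR, and a circle was called where its Benjamini-Hochberg adjusted p over all 9032 circRNAs tested was below 0.05. The filter (3 or more libraries with 2 or more counts, and 10 or more counts in all) kept 182 of the 756 intergenic circles, with 82.09% of the counts. It did not use the groups, so a circle could pass through the breed in which it was high. The circles called higher in Hezuo below met it on Hezuo counts and would not have met it on Bama counts alone. For novel_circ_016112 the reverse held. In these circles, low or absent counts in the other breed are therefore a description. A total of 10 intergenic circles were called in at least 1 comparison.

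More intergenic circles were called between breeds than between temperatures. Averaged over both temperatures, 8 of the 182 intergenic circles passed, where 1.3% of all circRNAs tested did. Of the 8, 5 were higher in Hezuo pigs (background 0.775%) and 3 lower (background 0.52%). At room temperature alone, 3 passed (background 0.454%), with 1 higher (background 0.277%) and 2 lower (background 0.177%) in Hezuo. The 8 became 5 without control Hezuo replicate 3, cold-housed Hezuo replicate 1 or cold-housed Hezuo replicate 3, and the 3 became 1 without control Hezuo replicate 3. In cold-housed Bama replicates 1 and 3, which hold Y-linked RNA, each of the 5 circles higher in Hezuo had at most 2 counts. For the 3 circles lower in Hezuo the values were mixed. In those libraries novel_circ_009681 had 1249 and 993.7 CPM, the lowest of the Bama libraries, and novel_circ_013788 had 1657 and 712.4 CPM, the latter within the Hezuo range of 219.1 to 1040. The third, novel_circ_016112, had 0 and 225 CPM there. The lymphocyte markers were also lower in every Hezuo library than in every Bama library, and the part of these markers and of Y-linked RNA in the calls was not tested. In the cold alone, edgeR called 0 (background 0.454%), and DESeq2 called 0 as well. An unadjusted edgeR p below 0.05 was found for 25 of the 182 (13.74%), against 8.46% of all circRNAs tested. The 2 smallest p there belonged to novel_circ_016112 (edgeR adjusted p = 0.0533) and novel_circ_011411 (0.0557), and the latter passed when only the 2 cold groups were fitted (0.0344). Leaving out 1 library gave 0 to 2 calls in the cold. Among these, novel_circ_016112 passed without control Bama replicate 2, cold-housed Bama replicate 1 or any 1 of the control Hezuo libraries (adjusted p = 0.0211 to 0.0488), and novel_circ_011411 without cold-housed Bama replicate 3 or cold-housed Hezuo replicate 2 (0.0325 and 0.0229). The median log2 fold change of Hezuo against Bama was 0.07 over the 182 and -0.09 over all 9032, and 99 of the 182 were positive.

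**Figure D4:**
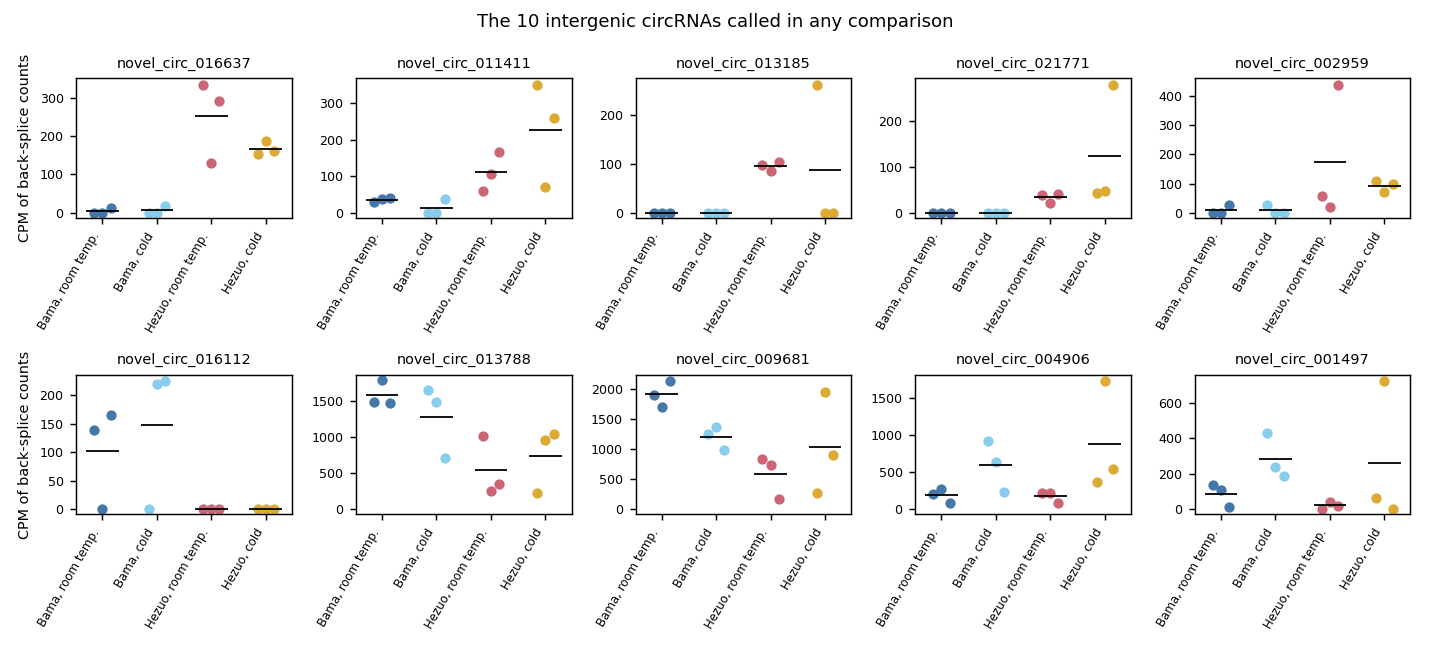
Each panel is 1 of the 10 intergenic circRNAs called in any comparison, each dot 1 library and each black line a group mean. The vertical axis is back-splice CPM with its own scale in each panel. The first 5 panels were called higher in Hezuo and the next 3 lower, and the last 2 were called higher in the cold.

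Of 6 circles that begin at the same base of chromosome 15, 1 was called lower and 1 higher in Hezuo. They begin at 71259536 on the plus strand, in the long non-coding gene LOC102164208, and end at 6 different positions, with 1333 counts in all. The circles of 3879 and 7548 bases lie inside that gene, and the longer ones overlap it in part. The neighbours are GRB14, which encodes an adaptor that binds the insulin receptor, and COBLL1. Summed, the 6 circles had 173, 173 and 206 counts in control Bama, 87, 124 and 90 in cold-housed Bama, 88, 48 and 83 in control Hezuo, and 59, 81 and 121 in cold-housed Hezuo.

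The shortest circle of the 6, novel_circ_013788 (71259536 to 71263414, 3879 bases), had the most counts over all libraries, 668 of the 1333. Its counts were 96, 97 and 107 in control Bama, 65, 81 and 38 in cold-housed Bama, 52, 12 and 17 in control Hezuo, and 10, 41 and 52 in cold-housed Hezuo. At room temperature every Hezuo library was below every Bama library, and over both temperatures the breeds overlapped through cold-housed Bama replicate 3. In CPM the means were 1433 ± 374 in Bama and 641 ± 402 in Hezuo (SD, n = 6). It was lower in Hezuo by a log2 fold change of -1.16 ± 0.23 over both temperatures (edgeR adjusted p = 0.00018) and of -1.53 ± 0.33 at room temperature (adjusted p = 0.00158). The call over both temperatures was kept without each of the 12 libraries and with DESeq2, and was lost with edgeR's stricter filterByExpr filter, which tests 23 of the 756 circles (adjusted p = 0.12). The call at room temperature was also lost with DESeq2 (adjusted p = 0.13), with filterByExpr (0.258) and without control Hezuo replicate 2 or 3 (0.199 and 0.12).

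The next longer circle from the same start, novel_circ_011411 (71259536 to 71267083, 7548 bases), went the other way. It had 2, 2 and 3 counts in control Bama, 0, 0 and 2 in cold-housed Bama, 3, 5 and 8 in control Hezuo, and 16, 3 and 13 in cold-housed Hezuo. Scaled to CPM, every Hezuo library (58.9 to 350.6) lay above every Bama library (0 to 41.4). Hezuo libraries held 48 counts of 278637 and Bama libraries 9 of 347343, a ratio per library total of 6.65 (exact 95% interval 3.23 to 15.41). It was higher in Hezuo by a log2 fold change of 2.7 ± 0.71 (edgeR adjusted p = 0.0168), a call kept with DESeq2. It was lost without cold-housed Bama replicate 1 or 2, control Hezuo replicate 3, or cold-housed Hezuo replicate 1 or 3 (adjusted p = 0.056, 0.0776, 0.106, 0.123 and 0.052).

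As a share of the 6 circles, the 3879-base circle made up 56.74% of Bama and 38.33% of Hezuo counts, and the 7548-base circle 1.06% and 10%. These shares pool the libraries of each breed. By library the 3879-base circle held 42.22% to 74.71% in Bama and 16.95% to 59.09% in Hezuo, so the breeds overlapped. For the 7548-base circle they did not (0% to 2.22% and 3.41% to 27.12%). The 36633-base circle novel_circ_021502 made up 20.98% and 30.21%, and had more counts than the 3879-base circle in control Hezuo replicates 2 and 3 (24 against 12 and 40 against 17) and cold-housed Hezuo replicate 1 (25 against 10). By library the 36633-base circle held 11.49% to 36.67% in Bama and 17.28% to 50% in Hezuo, so the breeds overlapped. The 28090-base circle novel_circ_000089 made up 14.07% and 17.08%, and its library shares overlapped as well. The 10266-base circle novel_circ_004000 had 28 counts in Bama, at least 2 in each library, and 4 in Hezuo, all in the cold. GRB14 itself was higher in Hezuo (log2 0.49 ± 0.12, edgeR adjusted p = 0.0249), but not without control Bama replicate 1, cold-housed Bama replicate 1 or 2, control Hezuo replicate 1 or cold-housed Hezuo replicate 1 (adjusted p = 0.0503 to 0.0686), and COBLL1 did not pass (0.2 ± 0.15, adjusted p = 0.389).

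A long circle on chromosome 9 was almost absent from Bama pigs. It is novel_circ_016637, on the plus strand from 129621012 to 129677373 (56362 bases), inside RefSeq gene LOC106507881 beside PROX1, which encodes a homeodomain factor of liver and lymphatic development. Counts were 0, 0 and 1 in control Bama, 0, 0 and 1 in cold-housed Bama, 17, 6 and 14 in control Hezuo, and 7, 8 and 8 in cold-housed Hezuo. Every Hezuo library lay above every Bama library. The ratio of counts per library total was 37.4 (60 against 2 counts, exact 95% interval 9.91 to 315.9), and 58.5 without control Bama replicate 3 or 62.9 without cold-housed Bama replicate 3, which leave 1 Bama count. The log2 fold change was 4.64 ± 0.8 over both temperatures (edgeR adjusted p = 2.96e-06) and 5.07 ± 1.1 at room temperature (adjusted p = 0.00158). Both calls were kept without each of the 12 libraries, with DESeq2 and with filterByExpr. In the Bama group, cold-housed replicates 1 and 3, which carry Y-linked RNA as the Hezuo libraries do, had 0 and 1 counts.

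Other circles end at the same base, and they were not absent from Bama. Of the 4 intergenic circles that end at 129677373, novel_circ_021856 (72053 bases) had 23 counts in Bama and 11 in Hezuo, and was seen in every library. In Bama it made up 57.5% of the 40 counts of the set, and in Hezuo 10.89% of 101, where novel_circ_016637 made up 59.41%. By library novel_circ_021856 held 16.67% to 100% in Bama and 3.45% to 25% in Hezuo, so the breeds overlapped. The shares of novel_circ_016637 did not overlap (0% to 11.11% and 50% to 87.5%). Each library had only 3 to 29 counts of the set. A circle of 3670 bases, novel_circ_002708, had 8, 3 and 8 counts in control Hezuo and none in cold-housed Hezuo, with 5 in cold-housed Bama replicate 1 and 1 in control Bama replicate 3. PROX1 gene counts, at 292.6 to 464.6 CPM over all libraries, did not pass in the comparison of breeds (0.3 ± 0.12, edgeR adjusted p = 0.128), and passed without control Bama replicate 2 (0.43 ± 0.09, adjusted p = 0.0137).

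**Figure D5:**
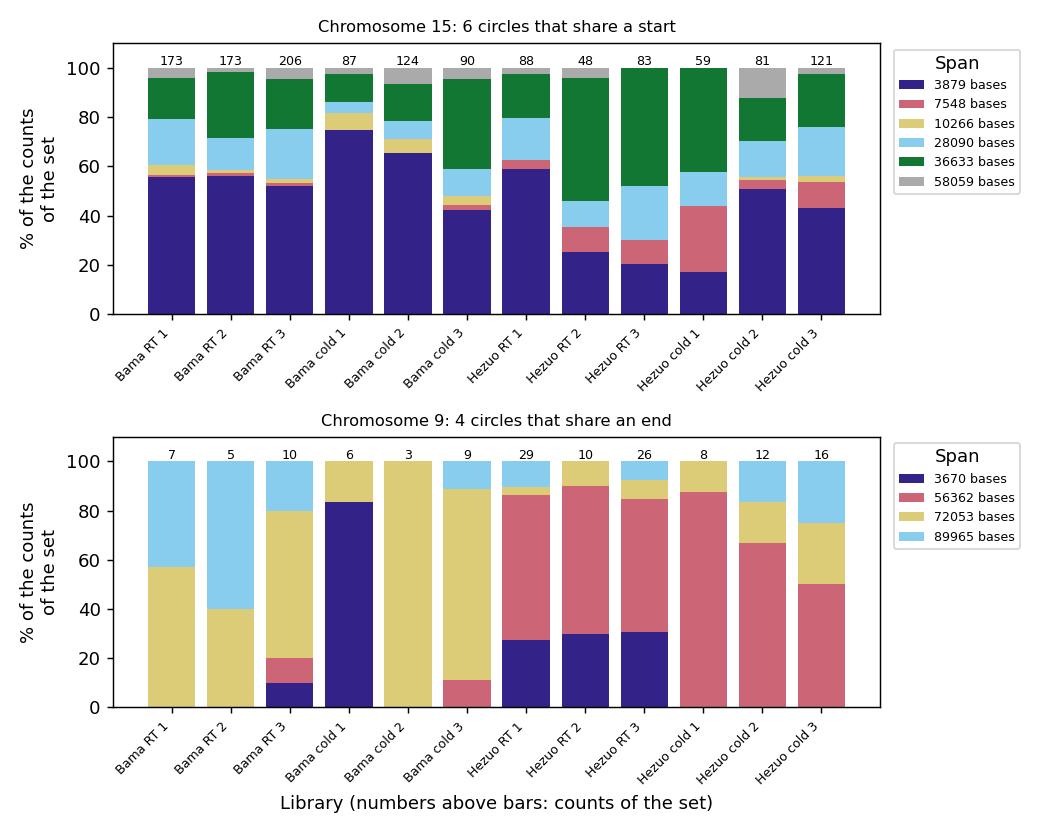
Each bar is 1 library, split by the share of counts of each circle in a set that has 1 end in common, with spans in the key and the counts of the set above the bar. In the upper panel the 6 circles share a start on chromosome 15, and the 7548-base circle held 0% to 2.22% of the set in Bama libraries and 3.41% to 27.12% in Hezuo libraries. In the lower panel the 4 circles share an end on chromosome 9, where bars rest on 3 to 29 counts each.

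The other 3 circles called higher in Hezuo pigs had low counts. In LOC110260049 beside APOB, the gene of the main protein of very low density lipoproteins, novel_circ_013185 (chromosome 3, 117215520 to 117216255, minus strand, 736 bases) had 5, 4 and 5 counts in control Hezuo, 12, 0 and 0 in cold-housed Hezuo, and none in the 6 Bama libraries. It was at least 10.8-fold higher in Hezuo, taking 3 counts over the 6 Bama libraries as the floor (edgeR adjusted p = 0.00314). The call was lost without cold-housed Hezuo replicate 1, which held all of its cold counts (adjusted p = 1, at least 6.87-fold), and DESeq2 gave no adjusted p for it.

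Between TNKS and PPP1R3B, which encodes a glycogen-targeting subunit of protein phosphatase 1, novel_circ_021771 (chromosome 15, 55813407 to 55814723, plus strand) touched no RefSeq gene. It had 2, 1 and 2 counts in control Hezuo, 2, 2 and 14 in cold-housed Hezuo, and none in Bama, so it was present in 6 of 6 Hezuo and 0 of 6 Bama libraries. This circle passed the filter through its Hezuo counts alone. It was at least 9.56-fold higher on the same floor (edgeR adjusted p = 0.022), but the call was lost with no filter (adjusted p = 0.0572). It was also lost without control Bama replicate 1 or 3, cold-housed Bama replicate 2 or 3 or control Hezuo replicate 1 or 3 (adjusted p = 0.0511 to 0.0579), and without cold-housed Hezuo replicate 3, which held 14 of its 23 counts (0.208, at least 4.6-fold). In LOC110257349 on chromosome 16 (28306177 to 28306608, plus strand, 432 bases), novel_circ_002959 had 3, 1 and 21 counts in control Hezuo and 5, 3 and 5 in the cold, against 0, 0 and 2 and 1, 0 and 0 in Bama. In CPM the breeds overlapped through control Hezuo replicate 2 (21.5). The ratio was 15.79 (38 against 3 counts, exact 95% interval 5.01 to 79.96), 8.5 without control Hezuo replicate 3 and 37.1 without control Bama replicate 3. The log2 fold change was 3.57 ± 0.89 (edgeR adjusted p = 0.00738), and the call was lost without control Hezuo replicate 3, which held 21 of its counts (adjusted p = 0.399).

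Besides the chromosome 15 circle, 2 circles were called lower in Hezuo. On chromosome 4, novel_circ_016112 (110411073 to 110422382, minus strand, 11310 bases) overlaps LOC106510200 and LOC110260350. The nearest coding gene with a symbol is GSTM3, of the mu class of glutathione S-transferases, a family of similar copies between which reads can be misplaced. The circle does not lie in GSTM3, and a part of misplaced reads in its counts was not tested. Counts of novel_circ_016112 were 9, 0 and 12 in control Bama and 0, 12 and 12 in cold-housed Bama, with none in Hezuo. The circle was thus seen in 4 of 6 Bama libraries, with 9 to 12 counts, and was at 0 in the other 2. It was at least 12.03-fold lower in Hezuo (floor of 3 counts over the 6 Hezuo libraries, edgeR adjusted p = 0.000216). The call was kept without each of the 12 libraries and was lost with DESeq2 (adjusted p = 0.475). It shares its start with novel_circ_021897, an exon and intron circle with 114 counts and no gene symbol.

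On chromosome 1, novel_circ_009681 (106664464 to 106665739, minus strand, 1276 bases) lies in LOC102164252, between WDR7 and ST8SIA3, a sialyltransferase gene. It had 123, 93 and 155 counts in control Bama, 49, 75 and 53 in cold-housed Bama, 43, 34 and 8 in control Hezuo, and 12, 84 and 45 in cold-housed Hezuo. At room temperature the breeds did not overlap, and in the cold Hezuo replicate 2 lay above all cold-housed Bama libraries. The log2 fold change of Hezuo against Bama was -1.72 ± 0.35 at room temperature (edgeR adjusted p = 0.00129) and -0.97 ± 0.24 over both temperatures (adjusted p = 0.0138). The call over both was lost without control Bama replicate 3, any 1 of the cold-housed Bama libraries, control Hezuo replicate 3 or cold-housed Hezuo replicate 1 or 3 (adjusted p = 0.0673 to 0.322). The call at room temperature was lost without control or cold-housed Hezuo replicate 3 (0.0794 and 0.0922), and both calls were lost with DESeq2 (adjusted p = 0.397 and 0.517) and with filterByExpr (0.308 and 0.326). Its locus of 5 overlapping circles had 811 counts, of which 774 (95.44%) were its own. It shares its start with 2 circles classed as antisense to ST8SIA3, of 135 and 13 counts.

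Cold exposure was followed by higher levels of 2 intergenic circles of 1 locus. Averaged over both breeds, 2 of the 182 passed (background 0.21%), both higher in the cold (background 0.144%), and 1 without cold-housed Hezuo replicate 2. Both lie on the minus strand of chromosome 6 in the long non-coding gene LOC102158108, next to DHODH, which encodes the mitochondrial enzyme that oxidizes dihydroorotate in pyrimidine synthesis. The median log2 fold change in the cold was 0.06 over the 182 and -0.08 over all circRNAs tested.

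The first, novel_circ_004906 (14926250 to 14926563, 314 bases), had 13, 15 and 6 counts in control Bama and 36, 35 and 12 in the cold, and 11, 10 and 4 in control Hezuo and 17, 74 and 27 in the cold. In CPM all 3 cold-housed Hezuo libraries (372.5 to 1726) lay above all 3 at room temperature (83.2 to 215.9), and in Bama the groups overlapped through cold replicate 3 (225 CPM). The log2 fold change was 2.0 ± 0.32 over both breeds (edgeR adjusted p = 7.4e-07), and this call was kept without each of the 12 libraries, with DESeq2 and with filterByExpr. In Hezuo alone it was 2.33 ± 0.45 (adjusted p = 0.00106), the 1 intergenic circle called there (background 0.0775%, and 0.0443% for higher). That call was lost without control Hezuo replicate 3 or cold-housed Hezuo replicate 2 (adjusted p = 0.136 and 0.886), with DESeq2 (0.327) and with filterByExpr (0.44). In Bama alone it was 1.67 ± 0.44 and did not pass (adjusted p = 0.0822), and without cold-housed Bama replicate 3 it was 2.09 ± 0.46 and passed (0.015).

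The second, novel_circ_001497 (14931077 to 14937268, 6192 bases), had 9, 6 and 1 counts in control Bama and 17, 13 and 10 in the cold, and 0, 2 and 1 in control Hezuo and 3, 31 and 0 in the cold. In Bama all 3 cold libraries lay above all 3 at room temperature, and in Hezuo, cold-housed replicate 2 held nearly all of the cold counts. The log2 fold change over both breeds was 2.59 ± 0.55 (edgeR adjusted p = 0.00219), and the call was lost without cold-housed Hezuo replicate 2 (adjusted p = 0.789) and with DESeq2 (0.082) and filterByExpr (0.229).

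The locus holds 4 intergenic circles, and the other 2 were rarer. They are novel_circ_013276 (11019 bases, 5 counts at room temperature and 23 in the cold), which joins the start of the first to the end of the second, and novel_circ_020982, the shortest of the class. The end of the 314-base circle is also the end of 2 exon and intron circles with 47 and 7 counts, and that of the 6192-base circle is the end of 2 with 29 and 19 counts. DHODH gene counts were 7.37 ± 1.11 and 22.28 ± 16.87 CPM in control and cold-housed Bama and 12.72 ± 7.11 and 40.07 ± 43.53 CPM in Hezuo (SD, n = 3). The cold means rested on 1 library each. They were 12.69 without cold-housed Bama replicate 1 (41.47 CPM) and 15.09 without cold-housed Hezuo replicate 3 (90.02 CPM). The first is the Bama library highest in the 314-base and 6192-base circles (917.5 and 433.3 back-splice CPM). The second is not the Hezuo library highest in them. In the comparison of temperatures DHODH did not pass with edgeR (1.62 ± 0.55, adjusted p = 0.114) but did with DESeq2 (1.63 ± 0.58, adjusted p = 0.0446). The highest library for both circles, cold-housed Hezuo replicate 2 with 74 and 31 counts, and the next highest, cold-housed Bama replicates 1 and 2, were the 3 libraries in which ALB made up 1.53% to 3.14% of gene counts. In the other 3 cold libraries the 314-base circle had 12, 17 and 27 counts. In cold-housed Bama replicates 1 and 3, which hold Y-linked RNA, the 314-base circle had 36 and 12 counts and the 6192-base circle 17 and 10. Replicate 2, without Y-linked RNA, had 35 and 13. The part of the ALB share and of Y-linked RNA in the result was not tested.

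In Bama pigs alone, edgeR called 0 of the 182 in the cold (background 0.155%), and DESeq2 called 0. An unadjusted edgeR p below 0.05 was found for 15 (8.24%), against 6.54% of all circRNAs tested. Beside the 314-base circle, the smallest p belonged to novel_circ_000089, the 28090-base circle of the chromosome 15 start, with 32, 23 and 42 counts at room temperature and 4, 9 and 10 in the cold. These groups did not overlap, and the log2 fold change of -1.69 ± 0.51 did not pass (edgeR adjusted p = 0.265). In Hezuo it had 15, 5 and 18 counts at room temperature and 8, 12 and 24 in the cold.

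The response to cold was not found to differ between the breeds for any intergenic circle. Of the 182, 0 were called by edgeR (background 0.0886%) and 0 by DESeq2. An unadjusted edgeR p below 0.05 was found for 13 (7.14%), against 5.66% of all circRNAs tested. The smallest p belonged to novel_circ_002708 on chromosome 9 (edgeR adjusted p = 0.358) and novel_circ_009681 on chromosome 1 (adjusted p = 0.687). The first had counts in all control Hezuo libraries and in no cold-housed Hezuo library, as given beside its set. Without cold-housed Hezuo replicate 1, novel_circ_009681 passed with a difference of 1.96 ± 0.46 on the log2 scale (adjusted p = 0.0252).

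Genes that shape the making and decay of circRNAs were read from the gene counts of the same libraries. Of 23 such genes, all tested, 0 passed in the cold over both breeds (background 3.89% of 13532 genes), with 2 at an unadjusted p below 0.05. Between breeds, 4 passed (background 12%), all lower in Hezuo (background 5.87%). Among them were ADAR, which edits double-stranded RNA (63.61 ± 9.75 and 93.48 ± 21.54 CPM in control and cold-housed Bama, 52.2 ± 3.88 and 49.58 ± 4 in Hezuo), METTL14, of the enzyme that writes N6-methyladenosine, and DDX39B, a helicase of RNA export. Their log2 fold changes were -0.6 ± 0.12, -0.46 ± 0.09 and -0.26 ± 0.07 (edgeR adjusted p = 0.0117, 0.013 and 0.0408). Those of ADAR and METTL14 passed without each of the 12 libraries. DDX39B did not pass without control Bama replicate 1 or 3, cold-housed Bama replicate 1 or 2, control Hezuo replicate 1 or 3 or cold-housed Hezuo replicate 1 or 3 (adjusted p = 0.0574 to 0.1). The 4 calls became 2 without control Bama replicate 3, cold-housed Bama replicate 1, control Hezuo replicate 1 or cold-housed Hezuo replicate 1. DHX9, at 238.4 to 303 CPM in the group means, had a log2 fold change of 0.2 ± 0.1 in the cold (adjusted p = 0.238). The median over the 23 genes was -0.06 between breeds, against 0 over all genes.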

How the data were processed

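Liver RNA of 12 libraries (pigs 1 to 3 of each group, per the labels) was analysed. Back-splice counts per circRNA are the values the authors deposited, and the deposited RPM columns, the same counts scaled by each library's back-splice total, were not used in tests. For genes, the estimated counts deposited by the authors were rounded, and the deposited FPKM values were not used. Reads were trimmed with fastp, per the submitters' processing notes; which aligner, circRNA caller and counter were used is not given in the sources used here. Circles were tested with edgeR 4.0.16 in R 4.3.3 (TMM, robust quasi-likelihood, 4 groups, 8 residual degrees of freedom) on the whole table, with Benjamini-Hochberg adjustment; genes likewise after filterByExpr. The standard error is the absolute log2 fold change over the square root of F. Scripts were tested on simulated data. Alternatives were DESeq2 1.42.0, other scalings and filters, a replicate block and leaving out each library. The members and lists were chosen with earlier results of these data known. Named are the 12 most abundant circles, up to 6 called circles per direction and comparison (or the 2 of smallest p), the 5 loci with most circles, the longest and shortest circle and their neighbours, and up to 4 regulators of smallest p; some of these are not reported here. Circles that share an end with these were chosen after their values were seen. Junction sequences were not analysed here.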

Additional observations from a re-analysis of the deposited data

How the results depend on the processing

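Calls of intergenic circles rested on few counts and moved with the settings. Over both temperatures, the 8 circles called between breeds became 4 with DESeq2 and 1 with filterByExpr, which tests 23 of the 756 circles, and 5 to 9 when 1 library was left out; at room temperature, 3 became 1 and 1, and 1 to 4. Between breeds in the cold, 0 became 2 with RLE size factors, with back-splice totals alone and with only the 2 groups compared, and 0 to 2 when 1 library was left out. In the cold over both breeds, 2 became 1 with DESeq2 and 1 with filterByExpr, and 1 to 3. In Hezuo, 1 became 2 with RLE size factors or totals alone, 0 with DESeq2 and 0 with filterByExpr, and 0 to 2. In Bama, 0 became 1 with RLE size factors, and 0 to 1, as in the difference between breeds (0 to 1). The regulators called between breeds numbered 2 to 5 when 1 library was left out and 3 to 5 under the other settings, and in the cold 0 throughout. Without the most abundant circle, the share of back-splice counts fell to 1.86% in control Bama and 1.88% in cold-housed Bama, more than 1 SD below the reported means; leaving out 1 library gave 2.07% to 2.17% and 2.11% to 2.47% there, and 1.76% to 2.06% and 2.02% to 2.28% in Hezuo.

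Over 249 refits of the 14 single calls, the direction was kept in all and the call in 208; of 126 refits of 7 tests of single circles that had not passed, 14 passed. The replicate block, which treats pigs of the same number as paired, again gave 8 calls between breeds over both temperatures and changed no call of a named circle, while DDX39B did not pass with it (adjusted p = 0.0598). The numbers were not taken to pair the libraries. Same-numbered libraries of different groups correlated at -0.0268 to 0.0347 and other-numbered ones at -0.0422 to 0.0194. Both ranges include pairs of libraries from different breeds, so they cannot decide on pairing within a breed. Depth limits the tests: with a median of 4 counts per circle over 12 libraries, 182 of the 756 circles passed the filter. The refits of PARP2, GRB14, COBLL1, PROX1 and DHODH were chosen after seeing the data.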
